A study of Rattus norvegicus with 18 samples.

Results

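The superior sinoatrial node (sSAN) was compared with the inferior sinoatrial node (iSAN) of the same rat hearts. The 8 node libraries, 4 of sSAN and 4 of iSAN, were chosen by their region label out of 18 in the series. The other 10 came from the right atrium (RA, 4), the left atrium (LA, 4) and the left ventricle (LV, 2), and give the level outside the nodes. All rats were healthy male Sprague Dawley animals, and the labels name no treatment or genetic change. By age the animals formed pairs, rats 1 and 2 at 59 days and rats 3 and 4 at 70 days. Libraries whose titles end alike were taken as pieces of 1 rat, so each rat gave 1 sSAN and 1 iSAN piece and each age is present in both nodes. The pieces were dissected by hand from positions known from functional work on other hearts. They were whole tissue, with working myocardium, vessels, fat and nerve included, and no piece was mapped before its RNA was extracted.

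The sinoatrial node starts each heartbeat, and its pacemaker cells carry the HCN channels that conduct the funny current. The node lies under the epicardium where the superior caval vein enters the right atrium, next to pads of fat that hold ganglia of the heart's autonomic nerves. In rats part of the fat around the heart and great vessels is thermogenic, and its adipocytes burn fatty acids through uncoupling protein 1 (Ucp1). Ganglia are small and patchy, so that a hand-cut piece can include one or miss it.

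Node libraries held 18027671 to 24252103 counts, with a median of 20748309, and 14301 genes had enough counts to be tested between the nodes. Levels are given in CPM, counts relative to a library size scaled by the trimmed mean of M values (TMM), in the order of rats 1 to 4. The funny-current channel Hcn4, a defining marker of the node, was at 46.6 to 132.7 CPM in the 8 pieces and at 17.4 to 21.4 CPM in RA. Myh6, a myosin heavy chain of heart muscle, was also abundant in every piece. It was at 21240 to 23890 CPM in RA and at 22960 to 25290 CPM in LV. These are bulk samples, so fewer cells of a type and less RNA per cell cannot be told apart.

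Between the nodes 1 gene was called in the paired fit, 0.00699% of those tested, and it was lower in sSAN. No gene was called higher, and none passed the stringent threshold, which asks for a fold over 3 and an adjusted p under 0.01. The test was edgeR's quasi-likelihood test with rat as a block and Benjamini-Hochberg adjustment, and the call is an adjusted p under 0.05. Before adjustment, 1202 genes (8.41%) were higher in sSAN at a p under 0.05 and 1141 (7.98%) were lower. DESeq2 with the same block called 378 higher and 262 lower. In all 4 rats together, 2087 genes (14.6%) were higher in the sSAN piece and 1701 (11.9%) lower. The 4 sSAN pieces lay all above the 4 iSAN pieces for 388 genes (2.71%) and all below them for 392 (2.74%). Fits of 2 rats each gave other counts. The fit of the 59-day rats alone called 386 genes higher and 425 lower, and that of the 70-day rats 22 and 59. Both called more genes than the fit of all 4 rats, so these counts do not measure a difference between the ages. A region-by-age term, added after the data were seen, had an adjusted p under 0.05 by edgeR for 19 of 14301 genes.

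Agr2, a protein disulfide isomerase of the endoplasmic reticulum known from secretory epithelia, was the gene called. It was at 1.44, 0.352, 2.93 and 0.721 CPM in sSAN and at 16.9, 5.30, 20.1 and 9.38 CPM in iSAN. Every iSAN piece was above every sSAN piece, and RA, at 2.53 to 2.89 CPM, lay with the sSAN side. The log2 fold change of Agr2, sSAN over iSAN, was -3.40 ± 0.22 (SE, n = 4 rats), with an adjusted p of 0.0149 by edgeR. Without the rat block the adjusted p of Agr2 by edgeR was 0.29. Leaving out rat 2 gave 0.0892, leaving out rat 4 gave 0.0803, and the general neuron list as a covariate gave 0.291, so the call is lost in these settings. The log2 fold change of Agr2 in these fits was -3.25, -3.32, -3.30 and -3.55, in the same order, close to that of the paired fit.

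Coch was the only gene called without the block. It encodes cochlin, a matrix protein best known from the inner ear. It stood at 0.127, 0.411, 0.0496 and 0.288 CPM in sSAN and at 20.6, 5.46, 20.01 and 19.4 CPM in iSAN. The sSAN pieces were near the atrial level of 0.43 to 0.819 CPM in RA, and the iSAN piece of rat 2 was the lowest of its group. For Coch the log2 fold change was -6.19 ± 0.64 (SE) in the paired edgeR fit, with an adjusted p of 0.103, and the adjusted p was 0.0473 by edgeR without the block.

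The windows around the annotated starts of these genes are shown because they are the 2 genes that passed the threshold in either fit. They run from 250 bases before the start to 50 after it, are from RefSeq on GRCr8, and are written 5′ to 3′ on the gene's strand. Capitals mark matches on either strand to any of 4 motifs, the TATA box TATAAA, the nuclear receptor half-site AGGTCA, the E-box CAGGTG and the CCAAT box. Agr2 lies at chr6:58435658-58435957 on the plus strand and Coch at chr6:74766297-74766596 on the plus strand.
Agr2: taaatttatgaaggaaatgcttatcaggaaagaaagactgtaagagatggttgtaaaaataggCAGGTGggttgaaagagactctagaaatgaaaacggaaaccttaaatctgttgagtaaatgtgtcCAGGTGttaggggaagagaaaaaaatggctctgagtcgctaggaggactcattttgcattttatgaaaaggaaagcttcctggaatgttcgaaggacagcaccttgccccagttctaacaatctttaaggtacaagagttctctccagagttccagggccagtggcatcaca
Coch: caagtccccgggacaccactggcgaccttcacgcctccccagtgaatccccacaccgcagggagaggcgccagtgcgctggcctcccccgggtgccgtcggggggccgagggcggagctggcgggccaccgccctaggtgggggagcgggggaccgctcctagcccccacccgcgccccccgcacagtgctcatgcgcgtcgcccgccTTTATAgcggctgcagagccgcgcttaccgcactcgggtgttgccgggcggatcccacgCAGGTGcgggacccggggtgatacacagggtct
Both windows hold CAGGTG. It occurs 2 times before the Agr2 start and 1 time after the Coch start. The same letters, on either strand, are in 18.8% of all 33469 windows of this length. The Coch window also holds a TATA box on the reverse strand, found in 14.2% of windows. The nuclear receptor half-site, found in 16.2% of windows, is in neither, nor is CCAAT, found in 37.5%.

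**Figure D1:**
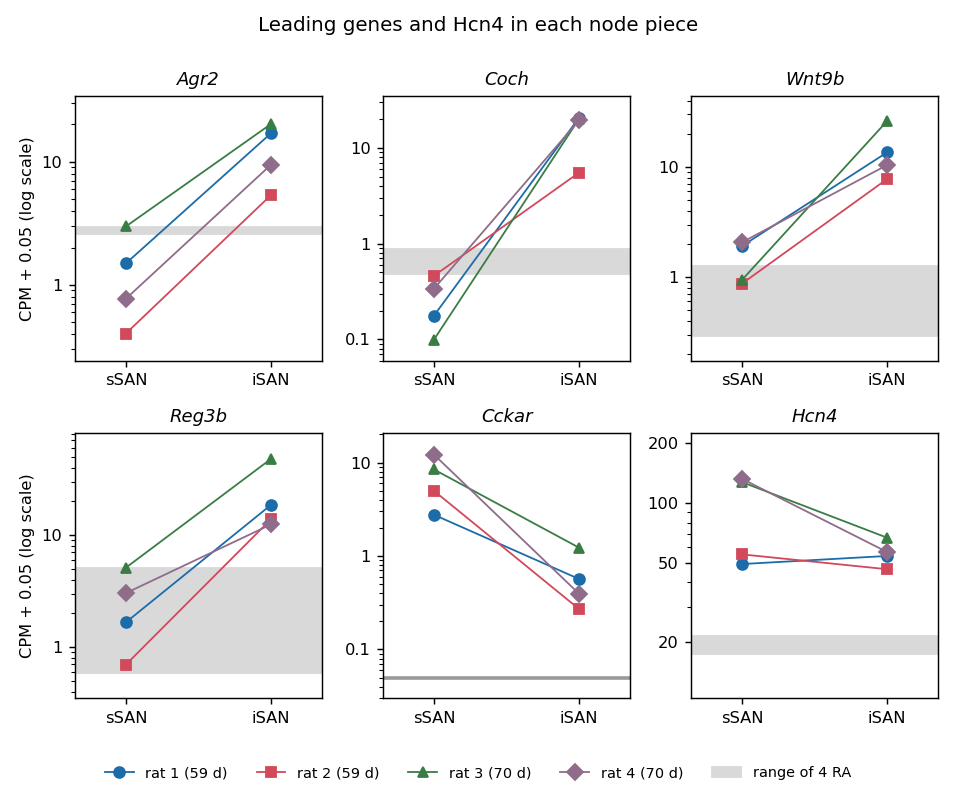
Levels of Agr2, Coch, Wnt9b, Reg3b, Cckar and Hcn4 in each node piece, as CPM + 0.05 on a log axis. Each line joins the sSAN and iSAN piece of 1 rat and the grey band or line is the range of the 4 RA libraries. For Agr2, Coch, Wnt9b and Reg3b every iSAN piece lies above every sSAN piece, and for Cckar every sSAN piece lies above. The Hcn4 values of the nodes overlap, and all lie above the RA band.

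The other genes on the iSAN side gave values but no call. Plxnc1, a receptor for semaphorins, was at 6.23, 4.52, 8.48 and 4.80 CPM in sSAN and at 20.5, 11.03, 17.9 and 11.05 CPM in iSAN. Its groups did not overlap, and its log2 fold change was -1.33 (adjusted p = 0.103 by edgeR). Ccn5, a matricellular protein, was at 14.6, 9.63, 34.0 and 27.7 CPM in sSAN and at 46.3, 22.6, 66.9 and 47.0 CPM in iSAN. Its groups overlapped, although the iSAN piece was the higher one in all 4 rats. The cell cycle regulator Ccnd2 (cyclin D2) and the phosphoinositide phosphatase Inpp4b had log2 fold changes of -0.65 and -0.79, without overlap.

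Serpina1, the protease inhibitor alpha-1-antitrypsin, had 5 counts in the 4 sSAN libraries together and 167 in iSAN. Spink1l had 1 count in sSAN and 157 in iSAN. Its iSAN over sSAN ratio of 148 has an exact 95% counting interval of 26.2 to 5899, so its size is poorly known. AC115202.3, for which the table gives no named product, had 5 counts in sSAN and 273 in iSAN. Ndufa1, a subunit of respiratory complex I, was at 0.352 to 0.805 CPM in sSAN and 0.938 to 9.78 CPM in iSAN. Its range over the 4 RA libraries, 0.916 to 22.6 CPM, was as wide as the node difference. RGD1561161 had a log2 fold change of -0.65, with overlap of the groups.

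A few secreted factors outside the selection rule, chosen after their values were seen, were also higher in iSAN. The Wnt ligand Wnt9b was at 1.86, 0.822, 0.892 and 2.02 CPM in sSAN and at 13.5, 7.72, 26.1 and 10.4 CPM in iSAN. Reg3b, an antimicrobial lectin known from gut and pancreas, was at 1.61, 0.646, 5.06 and 2.98 CPM in sSAN and at 18.5, 13.8, 47.8 and 12.4 CPM in iSAN. Its relative Reg3g was at 0.0424, 0, 1.39 and 0.817 CPM in sSAN and at 43.8, 5.13, 42.1 and 15.3 CPM in iSAN. None of these groups overlapped, and the log2 fold changes were -3.28 for Wnt9b, -3.21 for Reg3b and -5.64 for Reg3g. Their adjusted p-values by edgeR were 0.106, 0.103 and 0.128, and reads shared by the similar Reg3b and Reg3g genes could have been counted to either.

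On the sSAN side the 10 leading genes were uncalled, at adjusted p-values from 0.103 to 0.104 by edgeR. The mitochondrial genome gave 4 of them, AY172581.16 and AY172581.15 (transfer RNAs), AY172581.24 (a ribosomal RNA) and Mt-atp8 (a subunit of ATP synthase). Ntan1, an amidase that acts on N-terminal asparagine, was at 14.3, 10.7, 9.87 and 8.70 CPM in sSAN and at 6.38, 5.79, 5.15 and 4.17 CPM in iSAN. The groups of Ntan1 did not overlap, nor did those of LOC100912427 and LOC100911516, whose log2 fold changes were 0.82 and 0.67. Hpdl, a mitochondrial dioxygenase-like protein, and Pald1, known from endothelium, had log2 fold changes of 1.22 and 0.91 with overlap.

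Cckar, the receptor of the gut peptide cholecystokinin, was chosen after its values were seen. It was at 2.71, 4.93, 8.38 and 12.1 CPM in sSAN and at 0.517, 0.221, 1.18 and 0.344 CPM in iSAN. It had 0 counts in all 4 RA libraries, so both nodes were above the atrium and sSAN was above iSAN in every rat. Cckar had a log2 fold change of 3.54 (adjusted p = 0.104 by edgeR).

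Fat was present in every node piece, in amounts that differed widely between pieces of the same node. Adipoq, the hormone adiponectin and a defining marker of adipocytes, was at 930.3, 1015, 261 and 203 CPM in sSAN and at 38.4, 662, 259 and 376 CPM in iSAN. RA had 0.478 CPM or less. The poorest piece was the iSAN of rat 1 and the richest was the sSAN of rat 2, and the direction turned in rat 4. The log2 fold change of Adipoq was 0.80 over the 4 rats and -0.46 in the 70-day rats alone. Plin1, which coats the lipid droplet, gave the same picture with 457.5, 691, 192 and 125 CPM in sSAN and 9.48, 394, 132 and 132 CPM in iSAN.

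Of the 17 genes of the adipocyte list, all tested, 0 were called, and 0 passed an unadjusted p under 0.05 in either direction by edgeR, where 8.41% of all genes passed on the sSAN side and 7.98% on the other. The median log2 fold change of the list was 1.12, beside -0.01 over all genes tested. It was 2.37 in the 59-day rats and 0.14 in the 70-day rats. The sSAN piece of rat 2 had the highest level of 13 of the 17 members and the iSAN piece of rat 1 the lowest level of 16. Without rat 1 the list median was 0.37, and 6 members were higher in sSAN at an unadjusted p under 0.05 by edgeR, with none called. Summed over the list, sSAN had 9412.7, 12982, 4162.6 and 3611.2 CPM and iSAN 1849.8, 7871.6, 3320.2 and 4007.4 CPM. The sSAN over iSAN ratio was 5.09, 1.65, 1.25 and 0.901 in rats 1 to 4. The mean log2 ratio was 0.81 ± 1.08 (SD, n = 4 rats), with p = 0.25 by an exact two-sided sign-flip permutation test over the rats. With 4 rats that exact test cannot give a p under 0.125, and over the 7 such comparisons made the adjusted p was 0.438. Without rat 1 the mean log2 ratio was 0.30.

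Ucp1, which makes the heat of thermogenic fat, had the same direction in every rat, unlike Adipoq. It was at 952, 1549.8, 262 and 156 CPM in sSAN and at 2.41, 729, 84.1 and 16.0 CPM in iSAN, and RA had 0.145 CPM or less. The sSAN piece was the higher one in every rat. For the members of the brown adipocyte list under 1 CPM in RA, of which Ucp1 gave most in all pieces but the iSAN of rat 4, the sSAN over iSAN ratio was 255.7, 2.11, 2.70 and 5.02 in rats 1 to 4, a sum added after the data were seen. The iSAN piece of rat 2 was above the sSAN pieces of rats 3 and 4, so the groups overlapped. For Ucp1 alone the log2 fold change was 3.01 ± 1.55 (SE), with an adjusted p of 0.441 by edgeR.

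The level of Ucp1 per unit of Adipoq was computed after these values were seen. It was 1.02, 1.53, 1.00 and 0.769 in sSAN and 0.0629, 1.10, 0.325 and 0.0425 in iSAN. Thus the iSAN piece of rat 4 held more Adipoq than its sSAN partner but far less Ucp1. Alb, listed as a hepatocyte marker, was also higher in the sSAN piece of each rat, with 138, 180.4, 26.5 and 20.5 CPM in sSAN and 2.15, 74.3, 11.6 and 8.01 CPM in iSAN. Alb per unit of Ucp1 was 0.101 to 0.145 in 6 pieces, and 0.893 and 0.5 in the iSAN pieces of rats 1 and 4, where Ucp1 was lowest.

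Of the brown adipocyte list 9 of 12 genes were tested and 3 were higher in sSAN at an unadjusted p under 0.05, with none lower. Over all genes tested 8.41% were higher and 7.98% lower at that p. Cidea, a lipid droplet protein, had a log2 fold change of 0.96 (adjusted p = 0.11 by edgeR), with 539, 931, 294 and 311 CPM in sSAN and 175, 518, 185 and 184 CPM in iSAN. Atrial muscle also expressed Cidea, at 183 to 239.7 CPM in RA, and the iSAN pieces of rats 1, 3 and 4 were near that level. The other 2 were Pank1, an enzyme of coenzyme A synthesis, and Cpt1b, which brings fatty acids into mitochondria, at 0.97 and 0.37 on the log2 scale. Without rat 2, 1 gene of the list was higher at that p. Slc36a2 was at 62.4, 118, 21.6 and 18.4 CPM in sSAN and at 1.42, 60.1, 19.1 and 18.2 CPM in iSAN, so it was nearly equal in rats 3 and 4. Otop1 and Prdm16 were higher in the sSAN piece of every rat, at log2 fold changes of 2.12 and 0.80. Cox8b and Ppargc1a, at -0.098 and 0.104, did not keep 1 direction over the rats. The summed list gave a log2 ratio of 0.87 ± 0.59 (SD, n = 4 rats), positive in 4 of 4 rats, with p = 0.125 by the exact permutation test (adjusted p = 0.438).

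**Figure D2:**
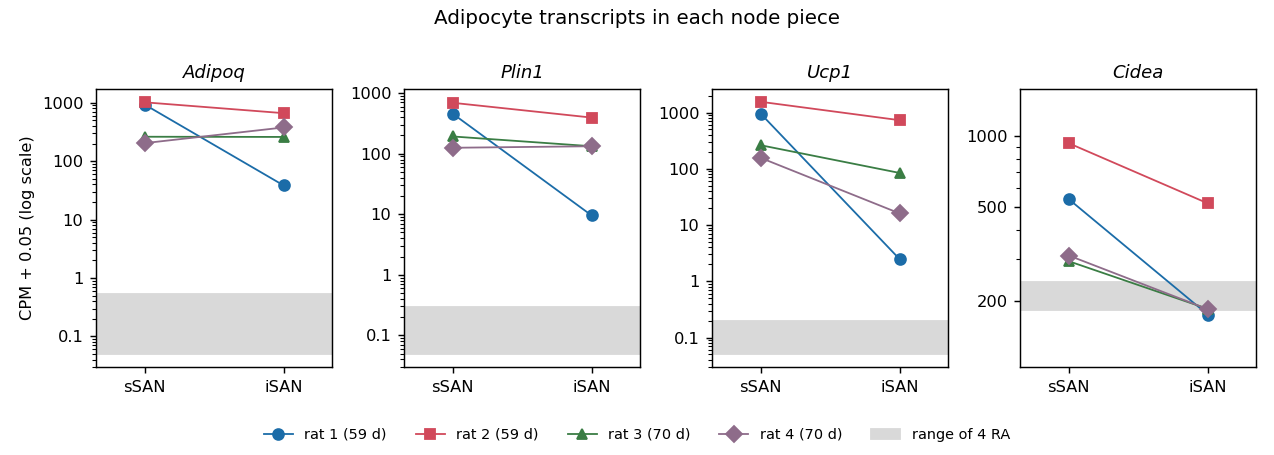
Levels of Adipoq, Plin1, Ucp1 and Cidea in each node piece, as CPM + 0.05 on a log axis, with lines joining the pieces of 1 rat and the range of the 4 RA libraries in grey. Ucp1 is higher in the sSAN piece of all 4 rats, whereas Adipoq is lower there in rat 4, and the iSAN piece of rat 1 has the least fat.

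The windows of Adipoq and Ucp1 are shown because Ucp1 was higher in the sSAN piece of every rat and Adipoq was not. Both are on the minus strand, Adipoq at chr11:91240120-91240419 and Ucp1 at chr19:41721372-41721671 of GRCr8, from RefSeq, with capitals as above.
Adipoq: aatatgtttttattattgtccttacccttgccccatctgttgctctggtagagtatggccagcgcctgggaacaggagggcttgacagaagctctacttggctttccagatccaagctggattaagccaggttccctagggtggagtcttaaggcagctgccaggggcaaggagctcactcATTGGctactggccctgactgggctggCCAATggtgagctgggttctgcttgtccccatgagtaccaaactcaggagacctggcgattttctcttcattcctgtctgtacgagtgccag
Ucp1: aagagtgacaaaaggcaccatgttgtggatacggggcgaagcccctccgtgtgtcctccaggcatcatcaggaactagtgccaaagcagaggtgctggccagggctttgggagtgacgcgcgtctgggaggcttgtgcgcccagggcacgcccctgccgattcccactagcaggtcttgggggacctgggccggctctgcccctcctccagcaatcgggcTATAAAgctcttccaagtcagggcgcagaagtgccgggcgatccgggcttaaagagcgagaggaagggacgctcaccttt
The Ucp1 window holds TATAAA 30 bases before the start and no CCAAT. The Adipoq window holds CCAAT 2 times, once on each strand, and no TATAAA.

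Neuronal transcripts were low in most pieces and high in 1. Nefl, the light neurofilament, was at 0.169, 4.29, 0.397 and 2.16 CPM in sSAN and at 0.646, 54.5, 7.47 and 7.51 CPM in iSAN. In each rat the iSAN piece was the higher one, and the iSAN piece of rat 2 stood far above the rest. For Nefl the log2 fold change was -3.02 ± 0.45 (SE), with an adjusted p of 0.11 by edgeR. Snap25, a protein of synaptic vesicle fusion, was at 0, 1.47, 0.149 and 0.865 CPM in sSAN and at 0.0862, 16.9, 2.52 and 3.05 CPM in iSAN. Stmn2, a tubulin-binding protein of neurons, did not overlap, with 1.14, 2.41, 0.892 and 2.50 CPM in sSAN and 2.67, 30.4, 5.52 and 7.02 CPM in iSAN.

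Of the 22 genes of the general neuron list 16 were tested. At an unadjusted p under 0.05, 8 were lower in sSAN (7.98% of all genes) and 0 higher (8.41% of all genes). None was called. The median log2 fold change was -0.69, and it was -1.36 in the 59-day rats and -0.54 in the 70-day rats. Without rat 2 it was -0.08, with 6 of 15 lower and 0 higher at that p. The iSAN piece of rat 2 had the highest level of 12 of the 16. Besides Nefl, Snap25 and Stmn2 the 8 were the vesicle calcium sensor Syt1, the medium neurofilament Nefm, the RNA-binding protein Elavl4, the neuronal tubulin Tubb3 and the growth cone protein Gap43. Their log2 fold changes were -2.73, -3.06, -2.57, -1.37 and -0.69.

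Summed over the list the log2 ratio was only -0.25 ± 0.52 (SD, n = 4 rats; p = 0.5, exact permutation test, adjusted p = 0.5), because Eef1a2, also made by heart muscle, gave most of the sum. Without rat 2 that ratio was -0.04, and scaled by library totals it was -0.47 and negative in all 4 rats. Without members at or over 1 CPM in RA, a setting added after the data were seen, the sums were 13.2, 25.1, 11.8 and 16.9 CPM in sSAN and 9.83, 198, 35.7 and 36.4 CPM in iSAN. RA had 2.51 to 5.45 CPM. The iSAN piece was the higher one in rats 2, 3 and 4 and the lower one in rat 1.

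Cholinergic markers followed the same piece. Slc18a3, which loads acetylcholine into vesicles, was at 0, 0.528, 0 and 0.529 CPM in sSAN and at 0.129, 9.32, 0.528 and 0.639 CPM in iSAN. Slc5a7, which takes up choline, was at 0.0847, 1.29, 0 and 0.288 CPM in sSAN and at 0, 10.9, 1.18 and 1.57 CPM in iSAN. Chat, the enzyme that makes acetylcholine, had 1 count in the 4 sSAN libraries and 34 in the 4 iSAN libraries. The cholinergic list held 6 genes, of which 3 were tested, and its summed log2 ratio was -0.65 ± 1.20 (SD, n = 4 rats; p = 0.5, exact permutation test, adjusted p = 0.5). Without rat 2 that mean was -0.06. Ache, which RA expressed at 9.84 to 13.1 CPM, gave most of the sum in all pieces but the iSAN of rat 2. Over the members under 1 CPM in RA, a sum added after the data were seen, the iSAN piece was higher in every rat. The sSAN over iSAN ratio was then 0.492, 0.0997, 0.0733 and 0.441 in rats 1 to 4. In rat 1 these sums were only 0.127 CPM in sSAN and 0.259 CPM in iSAN.

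Noradrenergic markers did not share a direction. Th, the first enzyme of catecholamine synthesis, was at 0.72, 1.17, 1.09 and 0.961 CPM in sSAN and at 0.215, 0, 0.649 and 0.344 CPM in iSAN. The groups of Th did not overlap, at a log2 fold change of 1.78 (adjusted p = 0.255 by edgeR), and RA had 0 counts. Slc6a2, which takes noradrenaline back up, went the other way, with 0.169, 0.176, 0.496 and 0.529 CPM in sSAN and 0.388, 0.772, 1.99 and 1.28 CPM in iSAN. Dbh, which makes noradrenaline from dopamine, was at 6.95 CPM in the iSAN piece of rat 2 and at 1.69 CPM or less in the other 7. Npy, a cotransmitter, was at 2.87 CPM in that piece and at 0.117 CPM or less in the others. The summed log2 ratio of the list was -0.17 ± 0.44 (SD, n = 4 rats; p = 0.5, exact permutation test, adjusted p = 0.5), with most of the sum from Ddc, Gata2 and Hand2, which RA expressed at similar levels. It was -0.05 without rat 1 and -0.03 without rat 2.

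The piece that was rich in neurons was not the piece that was rich in myelin. Prx, a scaffold protein of myelinating Schwann cells, was at 29.9, 27.7, 8.03 and 41.0 CPM in sSAN and at 6.38, 9.54, 7.39 and 28.9 CPM in iSAN. RA lay at 4.76 to 4.97 CPM. Both pieces of rat 4 and the sSAN pieces of rats 1 and 2 were high, and the other 4 pieces were low. In the paired fit Prx had a log2 fold change of 1.08 ± 0.39 (SE) and an adjusted p of 0.286 by edgeR.

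Mal, a membrane protein of myelin, was at 17.4, 17.6, 16.3 and 28.5 CPM in sSAN and at 6.03, 7.12, 5.72 and 18.3 CPM in iSAN, at a log2 fold change of 1.23 (adjusted p = 0.104 by edgeR). RA lay at 14.9 to 19.5 CPM, near the sSAN level. Sox10, the transcription factor of Schwann cells and their precursors, varied less, with a log2 fold change of 0.21. Of the 10 glial genes tested, 2 were higher in sSAN at an unadjusted p under 0.05, where 8.41% of all genes were, and none was lower. The summed log2 ratio was 0.95 ± 1.22 (SD, n = 4 rats; p = 0.25, exact permutation test, adjusted p = 0.438). The ratio itself was highest in rat 1, at 5.99, and under 1 in rat 3, at 0.855, and without rat 1 the mean log2 ratio was 0.41. S100b, which adipocytes also make, was lowest in the iSAN piece of rat 1, at 6.85 CPM, as Adipoq was.

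**Figure D3:**
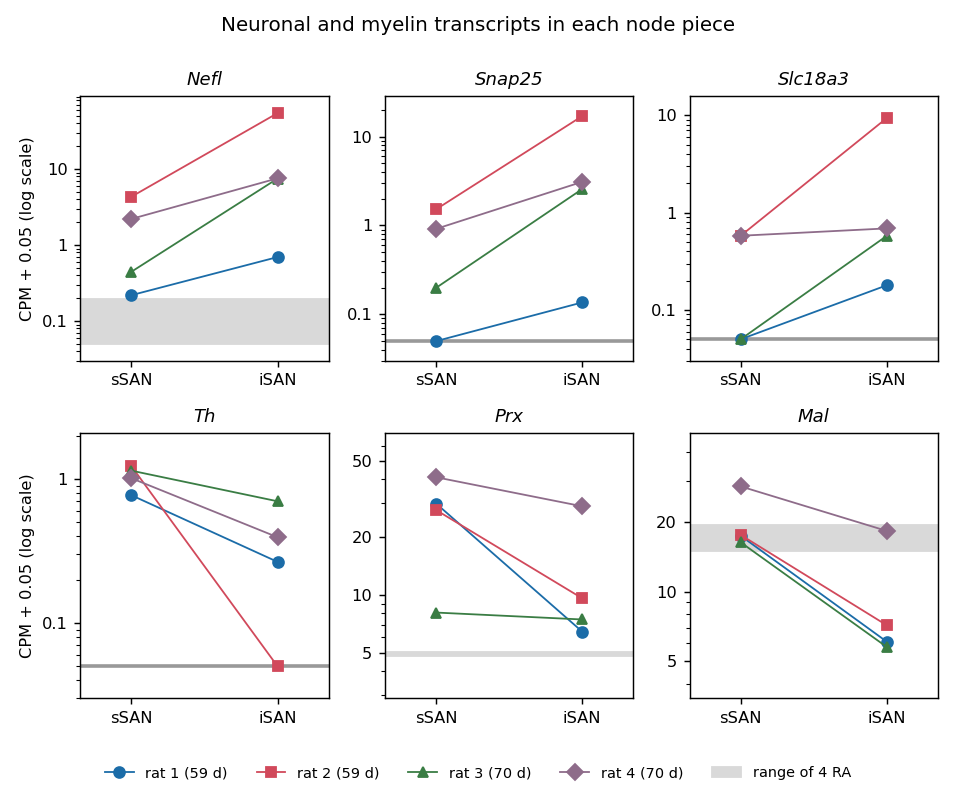
Levels of Nefl, Snap25, Slc18a3, Th, Prx and Mal in each node piece, as CPM + 0.05 on a log axis, with lines joining the pieces of 1 rat and the RA range in grey. The iSAN piece of rat 2 has the highest Nefl, Snap25 and Slc18a3, Prx is highest in both pieces of rat 4 and in the sSAN pieces of rats 1 and 2, and Mal is higher in the sSAN piece of each rat.

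Transcripts of the mitochondrial genome took a larger share of the sSAN libraries. They were 28.2%, 40.8%, 31.8% and 24.1% of all counts in sSAN and 20.7%, 28.0%, 19.1% and 19.2% in iSAN. RA lay at 16.4% to 18.8%, below every node piece. The share was higher in sSAN in 4 of 4 rats, by 9.46 ± 3.89 percentage points (SD), with p = 0.125 by the exact two-sided permutation test, the smallest it can give (adjusted p = 0.438). All 13 protein-coding genes of the mitochondrial genome had an unadjusted p under 0.05 and were higher in sSAN, where 8.41% of all genes were. Their median log2 fold change was 0.71, and none was called. Mt-nd4, a subunit of complex I, did not overlap between the groups.

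**Figure D4:**
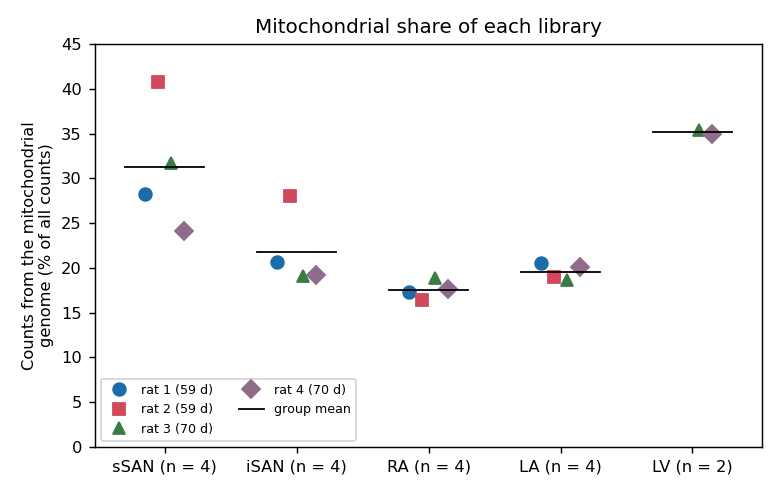
Share of all counts that came from the mitochondrial genome in each of the 18 libraries, in percent, with the group mean as a line. Each sSAN piece lies above the iSAN piece of its rat, and the sSAN piece of rat 2 is the highest of all, at 40.8%.

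Nuclear genes of mitochondrial fuel use lay on the same side. All 14 genes of the citric acid cycle were higher in sSAN at an unadjusted p under 0.05, with a median log2 fold change of 0.50. Over all genes tested 8.41% were higher and 7.98% lower at that p. For fatty acid oxidation 15 of 20 genes were higher and 1 was lower, at a median of 0.67, and for oxidative phosphorylation 12 of 19 were higher and 0 lower, at 0.30. Scaling by library totals, which moved the median of all genes from -0.01 to -0.225, left these medians at 0.28, 0.45 and 0.08, in the order citric acid cycle, fatty acid oxidation and oxidative phosphorylation. For glycolysis 6 of 16 genes were higher and 0 lower, at a median of 0.15, which was -0.07 when scaled by library totals. Without rat 2 the fatty acid oxidation list had 9 higher. None of these genes was called. Acads, which opens the oxidation of short fatty acids, was at 195, 228, 157 and 136 CPM in sSAN and at 98.1, 168, 91.0 and 94.2 CPM in iSAN. Sdhb, a subunit of succinate dehydrogenase, was at 384, 520.4, 303 and 302 CPM in sSAN and at 235, 355, 223 and 222 CPM in iSAN.

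The sSAN piece of rat 2 had the highest level of all 14 citric acid cycle genes and of 17 of the 20 fatty acid oxidation genes, and it also had the highest Ucp1 and Adipoq. The share of all genes that were highest in that piece was not counted. The fit with the adipocyte list as a covariate called 0 genes higher and 4 lower. The paired fit without it had already called 0 higher and 1 lower, so the count of higher genes could not fall. Whether fat content accounts for the levels of these genes was not tested. For the citric acid cycle the median was 0.67 in the 59-day rats and 0.32 in the 70-day rats, and for fatty acid oxidation 1.03 and 0.30.

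Most pacemaker genes did not separate the nodes. Hcn4 was at 49.4, 55.3, 128 and 132.7 CPM in sSAN and at 54.3, 46.6, 67.1 and 56.8 CPM in iSAN. The 70-day sSAN pieces were the high ones, and in rat 1 the iSAN piece was higher. Hcn4 had a log2 fold change of 0.56 (adjusted p = 0.334 by edgeR).

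Per 1000 CPM of Myh6, a ratio chosen after the values were seen, Hcn4 was at 4.39, 7.91, 10.05 and 9.71 in sSAN and at 3.32, 4.06, 5.31 and 3.43 in iSAN, higher in sSAN in every rat. Myh6 itself was at 11250, 6996, 12720 and 13660 CPM in sSAN and at 16360, 11480, 12640 and 16590 CPM in iSAN. It was thus lower in sSAN in rats 1, 2 and 4. In rat 1, where Hcn4 was higher in iSAN, the ratio was higher in sSAN only through the lower Myh6. Over all genes tested 8.41% were higher in sSAN and 7.98% lower at an unadjusted p under 0.05. Of the 19 genes of the node core list 4 were higher at that p (among them Cpne5, Smoc2 and the transcription factor Tbx3) and 1 was lower (the growth factor Bmp4). The log2 fold changes of those named were 1.10, 0.44, 0.31 and -0.44. The list median was 0.06, and it was -0.15 when libraries were scaled by their totals and -0.05 without rat 2. At that p 7 were higher without rat 1 and 4 lower without rat 3.

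Among the other channel genes named in the study, Scn3a, a neuronal sodium channel, and Kcnk1, a background potassium channel, had log2 fold changes of -0.29 and 0.57 with overlapping groups. The value of Scn3a was 0.095 without rat 4, and that of Kcnk1 was -0.012 in the 70-day rats alone. Cacna1c, Cacna1d, Cacna1g and Cacna1h, the calcium channels of the working muscle and the node, had log2 fold changes of -0.37, -0.22, -0.43 and -0.49, the first of them negative in all 4 rats. Of 66 ion channel genes on the study's list that were tested, 5 were higher and 15 lower in sSAN at an unadjusted p under 0.05, and 8 and 13 without rat 1. Over all genes 8.41% were higher and 7.98% lower at that p in the fit of 4 rats.

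Several transcripts of the atrial muscle had lower values in sSAN. Ryr2, the calcium release channel, did not overlap, with 1009, 735, 777 and 950.1 CPM in sSAN and 1503, 1040.1, 1144 and 1304 CPM in iSAN. Its log2 fold change was -0.53 ± 0.09 (SE), with an adjusted p of 0.11 by edgeR, and RA was higher still at 1727 to 1968 CPM. Of the calcium cycling list 4 of 12 were lower at an unadjusted p under 0.05, where 7.98% of all genes were, and 0 higher. The median of that list was -0.51 in the 59-day rats and -0.02 in the 70-day rats. The sarcomere list had 4 of 13 lower and 0 higher, and its median was -0.52 in the 59-day rats and 0.14 in the 70-day rats. The difference between the ages was not tested for the lists, and for Ryr2 the region-by-age term was 0.02 (adjusted p = 0.954 by edgeR). The sSAN piece of rat 2, the richest of the 8 in fat and mitochondrial transcripts, had the lowest level of 12 of the 13 sarcomere and 10 of the 12 calcium cycling genes. On the study's lists it was also lowest for 27 of 66 ion channel, 13 of 31 receptor and 11 of 27 transcription factor genes. The share of all genes that were lowest in that piece was not counted. Without rat 2 there were 1 sarcomere and 3 calcium cycling genes lower, at list medians of -0.07 and -0.17.

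Not all genes listed for atrial muscle had that direction. Kcna5, the channel of the ultrarapid potassium current, was at 13.6, 15.8, 10.3 and 13.9 CPM in sSAN and at 7.15, 11.5, 6.01 and 7.07 CPM in iSAN. Gja5, the fast gap junction protein connexin 40, also of arterial endothelium, was at 17.5, 33.1, 14.4 and 21.0 CPM in sSAN and at 6.16, 14.7, 12.9 and 8.84 CPM in iSAN. Both were higher in the sSAN piece of every rat, with log2 fold changes of 0.77 and 1.01 and adjusted p-values of 0.106 and 0.14 by edgeR. RA had 3.6 to 9.5 CPM of Kcna5, below every sSAN piece, and 2.96 to 5.83 CPM of Gja5, below every node piece. Unlike for Ryr2, RA was thus not the higher tissue. Kcna5 was at 8.48 to 10.31 CPM in LA and at 9.21 to 12.56 CPM in LV. Gja5 was at 3.72 to 5.59 CPM in LA and at 8.73 to 11.31 CPM in LV. Whether these levels follow muscle content was not tested. Tbx20, a transcription factor of the heart, was with Ryr2 and lower in every sSAN piece, at 69.5, 39.8, 54.2 and 71.7 CPM beside 123, 85.9, 103 and 94.4 CPM in iSAN (log2 fold change -0.82, adjusted p = 0.104 by edgeR).

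Receptors of nerve transmitters did not share a direction. Chrm2, the muscarinic receptor through which vagal nerves slow the node, was at 113, 83.8, 89.5 and 132 CPM in sSAN and at 170.1, 133, 145 and 152 CPM in iSAN. Chrna7, a nicotinic receptor subunit of neurons, was at 0.169, 0.235, 0 and 0.192 CPM in sSAN and at 0.819, 3.59, 2.31 and 0.786 CPM in iSAN. Neither gene overlapped between the nodes, with log2 fold changes of -0.55 and -3.42 and adjusted p-values of 0.112 and 0.125 by edgeR. RA was higher for Chrm2 than either node, at 190.9 to 221.5 CPM. Adra2b, an alpha-2 adrenergic receptor, had a log2 fold change of 0.60, with overlap. Chrnb4, a nicotinic subunit of autonomic ganglia chosen after its values were seen, was at 6.40, 3.35, 1.04 and 0.625 CPM in sSAN and at 0, 4.52, 0.812 and 0.540 CPM in iSAN, at a log2 fold change of 1.11 (adjusted p = 0.737 by edgeR). Of the 31 receptor genes tested from the study's list 1 was higher and 8 lower at an unadjusted p under 0.05, 3 and 5 without rat 1, and 2 and 4 without rat 4. Over all genes 8.41% were higher and 7.98% lower at that p in the fit of 4 rats.

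Blood transcripts had higher and matrix transcripts lower values in sSAN. Hbb, the beta chain of hemoglobin, was at 141, 116, 90.6 and 153 CPM in sSAN and at 72.3, 74.6, 43.3 and 46.8 CPM in iSAN. Alas2, the first enzyme of heme synthesis in red cells, was at 8.05, 6.22, 4.96 and 7.01 CPM in sSAN and at 4.01, 3.86, 1.95 and 2.65 CPM in iSAN. All 5 erythroid genes tested were higher in sSAN at an unadjusted p under 0.05, where 8.41% of all genes were. The sSAN pieces lay all above for these 5 and for 2.71% of all genes. The median log2 fold change of the 5 was 1.25. None was called, and hemoglobin genes share reads with their copies. Of 15 fibroblast and matrix genes 6 were lower at that p, where 7.98% of all genes were, and 0 higher, at a median of -0.35. Fbln1, a fibulin of the matrix, and Col3a1, a fibrillar collagen, had log2 fold changes of -0.62 and -0.49.

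Endothelial genes were split, with Kdr, a receptor of vascular endothelial growth factor, at a log2 fold change of 0.50 and Vwf, the clotting factor of vessel walls, at -0.52. Rag1, a recombinase of immature lymphocytes and 1 of 7 genes listed for thymus, was the only one of them with enough counts to be tested. It was at 1.86, 1.88, 5.80 and 1.15 CPM in sSAN and at 0, 0.165, 0.0406 and 0.393 CPM in iSAN, and it reached 3.23 CPM in 1 RA library. Its log2 fold change was 4.05 (adjusted p = 0.147 by edgeR).

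**Figure D5:**
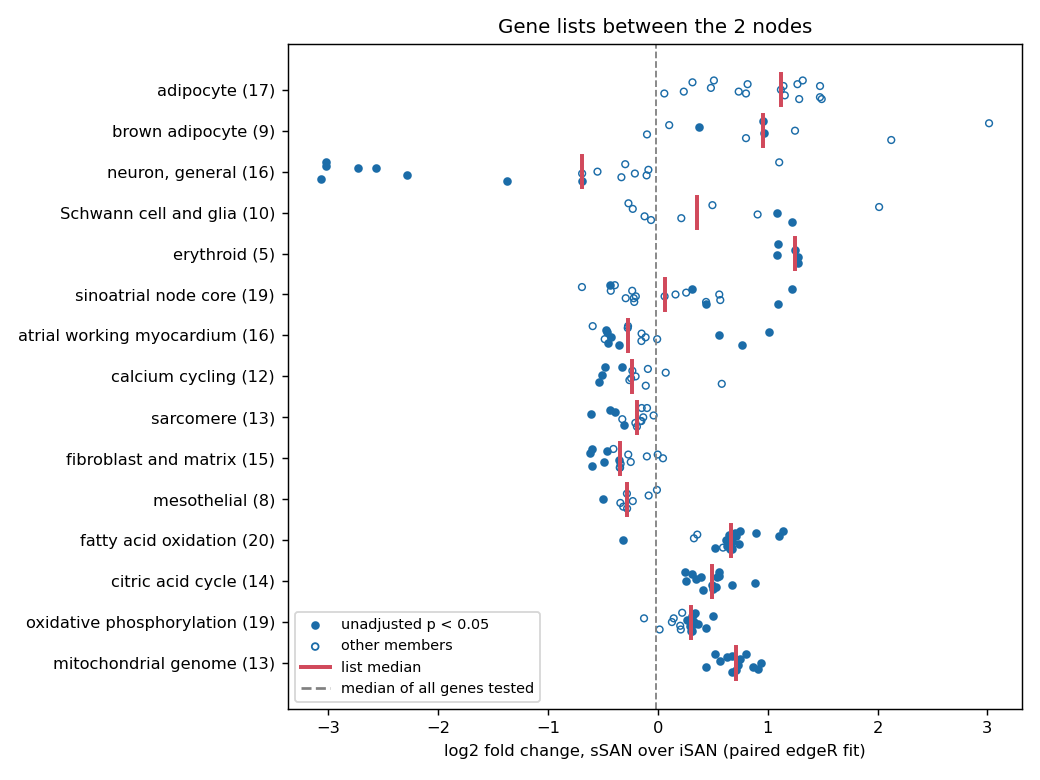
Log2 fold change, sSAN over iSAN, of each tested member of 15 gene lists, with the number of members in brackets. Filled points had an unadjusted p under 0.05, red bars are list medians and the dashed line is the median of all genes tested, -0.01. The median is 1.12 for adipocyte genes, -0.69 for neuron genes and 0.71 for the mitochondrial genome, and no member of these lists was called.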

How the data were processed

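Total RNA from hand-dissected pieces was sequenced by the authors on an Illumina HiSeq as paired reads. Per the labels and the methods, reads with adapters, unknown bases or low quality were removed, the rest were aligned with HISAT2 (version not given in the sources used here), and the raw count of each gene was made with HTSeq 0.6.1 and deposited unscaled. The annotation is a rat release, the build is not named, and whether counting used strand is not given, so overlapping and antisense genes are uncertain. The table has 32883 genes, each with a name. Another 90 columns of per-sample values (FPKM and normalized values) and the authors' fold changes and p-values were not used.

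In R 4.3.3, edgeR 4.0.16 scaled the 8 node libraries by TMM, applied its filter on low counts and, by quasi-likelihood with robust estimates, modelled region and rat. The threshold for a call was an adjusted p under 0.05. Printed CPM values were scaled over all 18 libraries. Pairing rests on the shared title endings and on the study's design of 4 rats. Residuals of the 2 node pieces of a rat correlated at -0.101, 0.576, 0.226 and 0.282 in rats 1 to 4, and at -0.081 on average between different rats, so the value of rat 1 is like that between rats. P-values measure the spread over these 4 rats.

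The text names up to 10 genes in each direction that passed, filled with those of the smallest unadjusted p with at least 1 CPM on the higher side and 1 direction in all 4 rats, then list members and the node genes named in the study. A few genes that this rule takes in are not reported here. Genes added after their values were seen are marked. Lists and comparisons were chosen with earlier results of these data known, and the study's own lists are not independent evidence. Of 544 list genes in 39 lists, 528 matched the table. Counts of list genes highest or lowest in 1 piece were not set beside a share over all genes. Content sums were tested with an exact sign-flip permutation test over rats. Alternatives were no block, other scalings, no filter, DESeq2 1.42.0, all 18 libraries, each rat or age left out, and fat or neuron content as a covariate. The steps were tested on simulated data, where the paired fit called 76% of 2-fold and 92% of 4-fold changes over 14022 genes. The same fit made 12 false calls. The changes were placed in genes of at least 1 CPM on average, with counts drawn from edgeR's gene-wise dispersion (spread) alone. In the real data larger differences, such as that of Coch, were not called in the paired fit. The simulated shares therefore do not give the power of this comparison. At the depth of these libraries 1 CPM is about 20 counts, and counting intervals cover counting error only. Of 13 genes whose start windows were looked up in RefSeq on GRCr8, 10 had one.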

Additional observations from a re-analysis of the deposited data

Results flagged for a closer look

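The gap of 1 piece to the other 3 exceeded Dixon's 95% critical value in 27 of 160 pairs of a measure and a node. The chance rate of about 1 in 20 holds for normally distributed measures that were fixed in advance. CPM values are skewed and many of the genes were chosen from these data, so the 27 cannot be set against that rate. Many of these measures share genes or cells. In 19 of the 27 the piece was the iSAN of rat 2. It was the highest iSAN piece for brown fat, with 2184 CPM summed over the list and 805.9 CPM over its members under 1 CPM in RA, for Ucp1 (729.3 CPM) and for Cidea (517.7 CPM). It was also the highest for neurons, with 198.2 CPM over the neuron members under 1 CPM in RA, 33.65 CPM over the cholinergic list and 21.79 CPM over its members under 1 CPM in RA. Among single genes the same held for Nefl (54.5 CPM), Stmn2 (30.4 CPM), Syt1 (14.73 CPM), Slc5a7 (10.87 CPM) and Slc18a3 (9.323 CPM). Its metabolic transcripts stood apart as well, with Acads at 167.6 CPM, Sdhb at 354.9 CPM, Hpdl at 8.275 CPM, Mt-atp8 at 140.4 CPM and Mt-nd2 at 20630 CPM. It was the lowest iSAN piece for Coch (5.461 CPM) and RGD1561161 (54.34 CPM).

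The iSAN piece of rat 4 was apart in myelin genes, with Prx at 28.93 CPM and Mal at 18.27 CPM, and the sSAN piece of that rat in Mal (28.49 CPM) and in Spink1l (0.04805 CPM, a single count). The sSAN piece of rat 2 was the highest for Hpdl (17.44 CPM) and AY172581.15 (19.96 CPM). The sSAN piece of rat 3 was the highest for Rag1 (5.801 CPM) and the lowest for LOC100912427 (23.7 CPM).

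The node difference itself differed between the ages for 19 of 14301 genes at an adjusted p under 0.05 (edgeR, region-by-age term with 2 rats of each age, a term added after the data were seen). The sSAN over iSAN ratio was higher at 70 days for 2 of them and lower for 17. The largest term was that of Reg3g, 5.21 on the log2 scale. The 17 include Msln, Upk3b and Lrrn4, known markers of the mesothelium that covers the heart, with terms of -1.17, -1.32 and -1.70. Lrrn4 was at 55.7, 39.5, 21.96 and 32.1 CPM in sSAN and at 40.9, 24.1, 52.6 and 62.8 CPM in iSAN, so the direction turned between rats 1 and 2 and rats 3 and 4. The matrix genes Fmod and Gpc3 and the lysophospholipase Enpp2 had terms of -1.62, -1.30 and -1.64. Age and the pair of rats cannot be told apart.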

How the results depend on the processing

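Without the replicate block 0 genes were called higher and 1 lower, as in the paired fit, but that gene was Coch and not Agr2. The pairing changed no other call of a named gene. Genes called higher and lower numbered 14 and 18 with no filter on low counts, 378 and 262 with DESeq2, 117 and 176 with all 18 libraries, 386 and 425 in the 59-day rats and 22 and 59 in the 70-day rats. Past the stringent threshold the counts were 1, 42, 2, 13 and 1 in that order. Of the genes called by DESeq2 (640) and with all 18 libraries (293), 229 were shared. The adipocyte covariate gave 4 lower genes, 1 of them past the stringent threshold, and the neuron covariate gave 0 lower, while its term widened the standard error 1.9 times at the median. List members called higher and lower were 3 and 4, 71 and 37, 8 and 17, 49 and 61, and 7 and 7 in the first order. With each rat left out, genes called higher ranged from 0 to 1, genes called lower from 0 to 4, and list members from 0 to 1 in each direction. The 4 lower genes came without rat 1 and the 0 without rat 4.

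Values turned sign for Adipoq (-0.46 in the 70-day rats, -0.36 with the adipocyte covariate, and -0.089 to 1.53 over the fits without 1 rat), Scn3a (0.35 in the 59-day rats, and -0.54 to 0.095 without 1 rat), Kcnk1 (-0.012 in the 70-day rats) and Adra2b (-0.13 with the neuron covariate). Over members under 1 CPM in RA the log2 ratio was 3.21 for brown fat, -1.31 for neurons and -2.33 for cholinergic genes. The mitochondrial share kept its direction without each rat, at 8.36 to 10.97 percentage points. Causes were not tested. Genes under about 1 CPM, most neuronal ones among them, are measured with wide counting error at this depth.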

Other observations

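Other cell types also differed from piece to piece. Of 10 macrophage genes tested, 9 were lowest in the sSAN piece of rat 3. Of 8 mesothelial genes, 6 were highest in the iSAN piece of rat 4 and 5 were lowest in the iSAN piece of rat 2. The shares of all genes that were lowest or highest in these pieces were not counted. Neurotrophic and axon guidance genes were split, with 2 of 15 higher and 4 lower in sSAN at an unadjusted p under 0.05 and a median log2 fold change of -0.01, as over all genes. At that p 8.41% of all genes were higher and 7.98% lower. The 2 higher members were the guidance receptors Nrp1 and Nrp2, at log2 fold changes of 0.31 and 0.44, with overlap. No member was higher at that p without rat 1 or without rat 2, and 2 were lower without rat 3 and 1 without rat 4. Sema3a, which repels sympathetic axons, was at 8.94, 7.69, 7.93 and 10.8 CPM in sSAN and at 12.1, 11.1, 12.0 and 15.2 CPM in iSAN, without overlap. Its log2 fold change was -0.52, with an adjusted p of 0.125 by edgeR. Hapln1, which links hyaluronan to proteoglycans, was at 0.932, 0.47, 6.40 and 1.63 CPM in sSAN and at 7.11, 2.76, 9.66 and 5.50 CPM in iSAN, higher in the iSAN piece of each rat, at a log2 fold change of -1.85 and an adjusted p of 0.143 by edgeR.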
